A study of Homo sapiens with 8 samples.

Results

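The eIF2α kinases EIF2AK1 (HRI), EIF2AK2 (PKR), EIF2AK3 (PERK) and EIF2AK4 (GCN2), together with IMPACT, EIF2S1 and PPP1R15B, were examined in RNA-seq of MDA-MB-231 cells, an established human breast cancer line. These 7 genes were taken by name from the 23393 genes of the read-count table, and all 7 passed the expression filter that left 15262 genes for testing. There were 2 libraries in each of 4 groups. Parental control cells were untreated, and parental starved cells received arginine deiminase (ADI), an enzyme that degrades arginine, at 0.3 µg/mL for 48 h. The ρ0 control and ρ0 starved groups were the same 2 conditions in a ρ0 derivative labelled #27, a line that lacks mitochondrial DNA. The labels describe ADI added to full growth medium, whereas the methods of the study describe arginine-starved medium, and "starved" below means the libraries labelled ADI. The ρ0 cells came from another laboratory and, by the methods, were kept in ethidium bromide, pyruvate and uridine, so the loss of mitochondrial DNA cannot be told apart from the clone, its history or its medium. The labels do not say whether the 2 libraries of a group came from separate cultures, so p-values measure the spread between these libraries, which may be technical. The spread of a gene was estimated over all 4 groups together, so a test within a line also carries the spread of the other line.

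Phosphorylation of eIF2α, the protein encoded by EIF2S1, lowers general translation and raises translation of ATF4 mRNA, a sequence of events called the integrated stress response. Each kinase is known for its own signal: GCN2 for uncharged tRNA in amino acid shortage, PERK for unfolded protein in the endoplasmic reticulum, PKR for double-stranded RNA, and HRI for heme deficiency and signals from stressed mitochondria. IMPACT competes for the GCN2 partner GCN1 and restrains GCN2. CReP, encoded by PPP1R15B, is the constitutive subunit that directs protein phosphatase 1 to eIF2α, whereas its relative GADD34, encoded by PPP1R15A, is induced during stress. Kinase activity depends on phosphorylation and ligands, and the values here are mRNA levels only. In bulk libraries, a change in the share of some cells cannot be told apart from a change of RNA per cell.

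Motifs of the factors that act in this pathway were searched in the promoters of the members, from 250 bases before to 50 after the start of each gene, on both strands. RefSeq promoters (GRCh38.p14) were matched for 6 of the 7 members, all but EIF2AK1. The letters searched were TGATGNAA, a core of the sites bound by ATF4 with C/EBP proteins, GAAA and GAAA separated by any 2 bases, a core of the interferon-stimulated response element, and TGACGTCA, the cyclic AMP response element. They occurred in 3.62%, 3.57% and 1.85% of 35116 RefSeq promoters of this length. Of the 6 promoters, 2 held a match, 1 each, and these stretches are shown because starvation changed both genes, in opposite directions. In EIF2AK2 (chr2:37156966-37157080, minus strand) the interferon-type letters ran from base -6 to base 4 relative to the start, and in PPP1R15B (chr1:204411938-204412052, minus strand) the ATF4-type letters ran from base -227 to base -220. Capitals mark the matched letters. A match describes the sequence and is not evidence of binding.
EIF2AK2: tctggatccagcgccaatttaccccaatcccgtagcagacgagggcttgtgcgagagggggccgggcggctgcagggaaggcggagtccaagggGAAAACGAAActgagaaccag
PPP1R15B: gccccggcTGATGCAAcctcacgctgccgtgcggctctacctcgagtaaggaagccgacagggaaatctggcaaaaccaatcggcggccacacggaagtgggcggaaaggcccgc

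The libraries held between 25259503 and 31022155 counts. Replicates differed by a biological coefficient of variation of 1.84% to 5.18% in 3 groups, and by 25.03% in the ρ0 control group. The 2 ρ0 control libraries therefore stand apart from each other, and the members' results that rest on them are also given without each. The shared estimate of the spread can thus exceed that of the parental libraries and fall below that of the ρ0 controls. Of 23 partner, regulator, target and overlapping genes given below with a ρ0 response, not counting GPATCH11, 18 were called. All 18 kept their direction without either ρ0 control library, as did the 11 of these groups given with a difference between the lines. Whether they kept their call says little, since such a fit takes the spread from the other groups. The 5 genes expected in MDA-MB-231 cells, which include VIM and CD44, lay between 70.7 and 3635 CPM (counts scaled to a common library size) in every library. The 6 genes of other cells summed to 0.119 to 1.65 CPM in the parental libraries and to 4.89 to 19.4 CPM in the ρ0 libraries, where the epithelial cadherin gene CDH1 had 104 to 457 counts against 0 to 2 in parental cells. Without CDH1 the sums were 0.106 to 1.59 CPM and 0.580 to 3.54 CPM, and the T cell gene CD3E was at 0 in every library. ASS1, the arginine synthesis gene that MDA-MB-231 cells express at a low level, had 1 to 10 counts in parental and 183 to 684 in ρ0 libraries. In ρ0 cells ASS1 rose from 6.35 and 11.5 CPM in controls to 23.1 and 22.3 CPM with ADI (log2 fold change 1.34, edgeR adjusted p = 0.0086). The part of these differences between the lines in the results below was not tested, nor was whether ADI depleted arginine alike in both lines. No gene of the mitochondrial genome is in the table used here, so the loss of mitochondrial DNA was not checked.

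Starvation moved the members in both directions. In parental cells, PPP1R15B, EIF2S1 and EIF2AK3 rose, IMPACT, EIF2AK1 and EIF2AK2 fell, and EIF2AK4 did not pass the test. In ρ0 cells, PPP1R15B rose, EIF2AK1 and EIF2AK2 fell, and the other 4 did not pass. The call was an adjusted p under 0.05 in edgeR's quasi-likelihood test, with Benjamini-Hochberg adjustment over the 15262 genes, and it applies to every adjusted p below unless another tool is named. The 6 of 7 members called in parental cells stand against 65.9% of all tested genes (30.4% higher and 35.5% lower), and the 3 of 7 called in ρ0 cells against 41.3% (19.2% higher and 22.1% lower), so neither count by itself sets the members apart. The study's further threshold, a log2 fold change above 1 or below -1, was passed in parental cells by 2 of the 7, PPP1R15B (higher) and IMPACT (lower), against 34.9% of all genes (12.7% higher and 22.1% lower). In ρ0 cells it was passed by 0 of the 7, against 12.4% (4.22% higher and 8.19% lower).

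**Figure D1:**
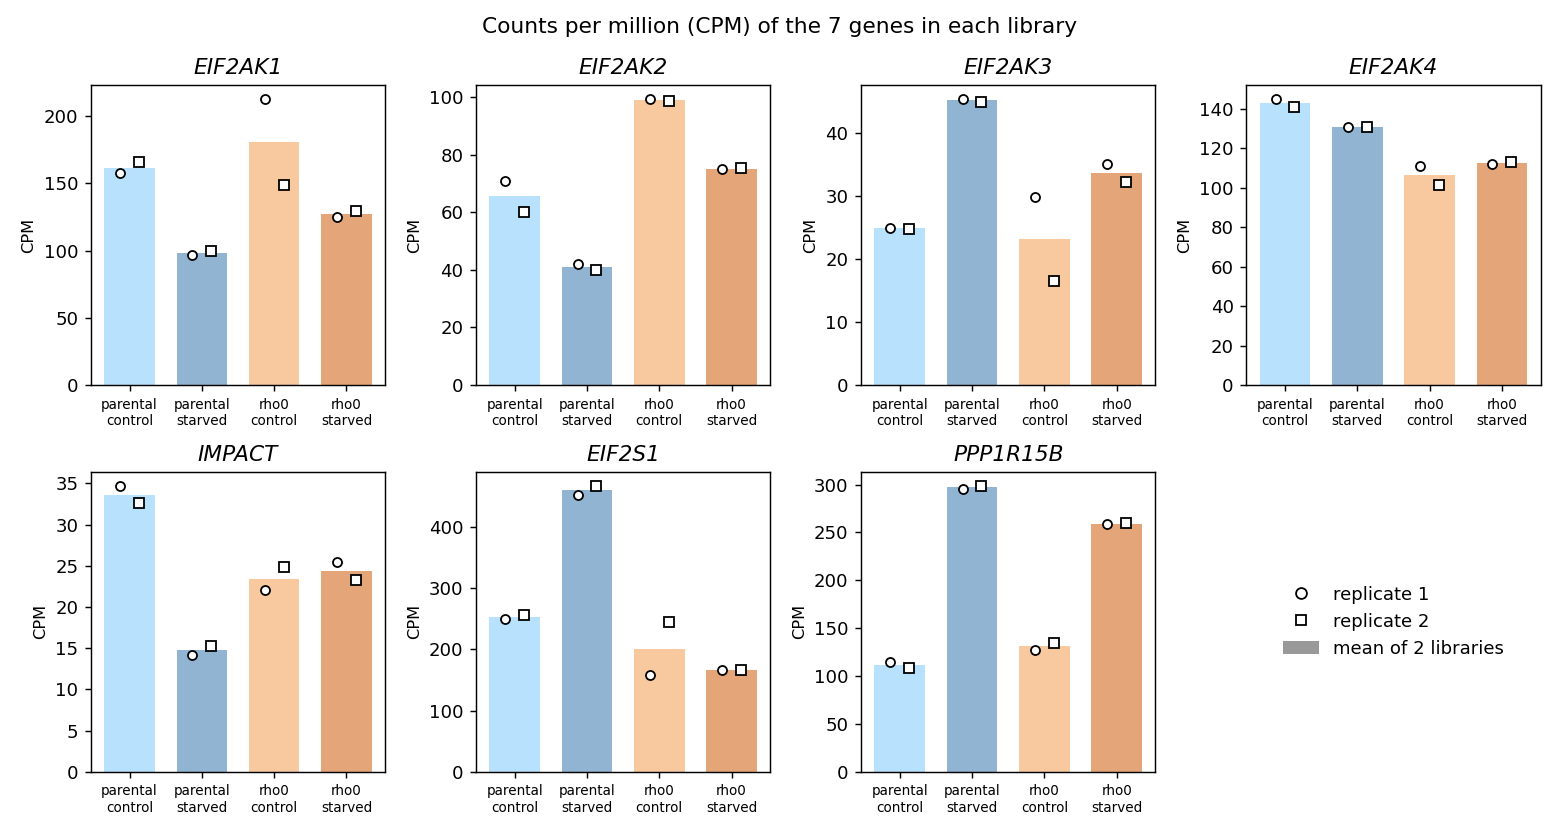
CPM of the 7 genes (y axis, linear, from 0) in the 4 groups (x axis). Points are the 2 libraries of a group (circle, replicate 1, square, replicate 2) and bars are their means. The ρ0 control libraries lie apart for EIF2AK1 (213 and 149 CPM), EIF2AK3 (29.9 and 16.6) and EIF2S1 (158 and 244), and close together for EIF2AK2 (99.4 and 98.6).

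Among the kinases, EIF2AK4, the GCN2 gene, was the one whose mRNA moved least. It stood at 145 and 141 CPM in the parental control libraries and at 131 and 131 CPM in the starved ones. The ρ0 libraries held 111 and 101 CPM as controls and 112 and 113 CPM when starved. Within each line the groups did not overlap, as for 89.2% of all tested genes in parental and 67.5% in ρ0 cells, and the differences were small. The log2 fold change was -0.13 (95% CI -0.31 to 0.05, adjusted p = 0.17) in parental cells and 0.08 (CI -0.10 to 0.26, adjusted p = 0.42) in ρ0 cells. These intervals exclude a doubling or a halving of the mRNA in either line. The parental value was called with upper quartile scaling (-0.25, adjusted p = 0.020) and total counts alone (-0.29, adjusted p = 0.0093), where the median of all genes also moved, to -0.19 and -0.23 from -0.07, and with limma-voom and group weights (-0.13, adjusted p = 0.015). Without ρ0 control library 1 and 2 the parental value was -0.13 and -0.09, and without library 1 the ρ0 value was 0.15. Such fits take the spread from the other groups, so their calls are not read as results on this gene.

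EIF2AK3, the PERK gene, was the kinase that rose. Its level went from 24.9 and 24.9 CPM in parental controls to 45.4 and 45.1 CPM in starved parental cells. That is a 1.82-fold rise, with a log2 fold change of 0.86 (SE 0.24, adjusted p = 0.013). In ρ0 cells the controls held 29.9 and 16.6 CPM and the starved libraries 35.1 and 32.3 CPM. The groups did not overlap, as for 67.5% of all tested genes in ρ0 cells, and the gap between the controls exceeded the one between control library 1 and the starved libraries. The log2 fold change in ρ0 cells was 0.54 (SE 0.24, adjusted p = 0.11). It was 1.03 without ρ0 control library 1 and 0.19 without library 2. The parental rise kept its size, 0.86 to 0.90, without any single library, but missed the threshold without any one of the 4 parental libraries (adjusted p = 0.055 to 0.071). In GENCODE v29, 781 exon bases of EIF2AK3 overlap the antisense gene AC104134.1, and the counting is not stated to use strand.

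EIF2AK1, the HRI gene, fell. Parental controls had 158 and 166 CPM and starved parental cells 96.8 and 99.5 CPM, with a log2 fold change of -0.72 (SE 0.15, adjusted p = 0.0041). This left 60.7% of the control level. In ρ0 cells the values were 213 and 149 CPM in controls and 125 and 129 CPM after starvation. Every starved library was below every control library, as for 34.5% of all tested genes in ρ0 cells, with a log2 fold change of -0.51 (SE 0.15, adjusted p = 0.032). The ρ0 value was -0.23 without control library 1 and -0.73 without library 2. The ρ0 call was lost without any one of the 4 parental libraries (adjusted p = 0.064 each), without either ρ0 starved library (0.17 without library 1 and 0.14 without library 2) and in a fit to the ρ0 libraries alone (0.14). EIF2AK1 shares 532 exon bases with AIMP2 on the opposite strand, whose own log2 fold changes were 1.38 in parental cells (adjusted p = 0.00076) and 0.54 in ρ0 cells (adjusted p = 0.067), opposite in sign to those of EIF2AK1.

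EIF2AK2, the PKR gene, fell too. It went from 71.0 and 60.1 CPM to 42.1 and 40.0 CPM in parental cells (log2 fold change -0.68, SE 0.10, adjusted p = 0.00055). In ρ0 cells it went from 99.4 and 98.6 CPM to 75.1 and 75.3 CPM (log2 fold change -0.40, SE 0.09, adjusted p = 0.013). The ρ0 controls, which lay apart for EIF2AK1, EIF2AK3 and EIF2S1, differed for this gene by a ratio of 1.01, and the ρ0 value was -0.39 without either of them. The ρ0 call was lost without either ρ0 starved library (adjusted p = 0.10 and 0.099), in the fit to the ρ0 libraries alone (0.063) and with limma-voom and group weights (0.083), at log2 fold changes of -0.38 to -0.40. EIF2AK2 shares 401 exon bases with the processed pseudogene AC007899.1 and 35 with GPATCH11, both on the opposite strand. The log2 fold changes of GPATCH11 were -0.11 in parental cells (adjusted p = 0.61) and -1.17 in ρ0 cells (adjusted p = 0.002), the same sign as those of EIF2AK2.

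The 4 kinases were also set against each other within each library, which needs no scaling between libraries. EIF2AK3 made up 6.24% and 6.35% of the 4 kinases' counts in parental controls and 14.4% and 14.3% in starved parental cells. In ρ0 cells its share was 6.60% and 4.53% in controls and 10.1% and 9.22% after starvation. The starved share was thus above the control share in every library of both lines, but lower in starved ρ0 than in starved parental cells. The share of EIF2AK1 went from 39.6% and 42.3% to 30.7% and 31.6% in parental cells and from 46.9% and 40.7% to 36.1% and 37.0% in ρ0 cells. EIF2AK4 held 36.3% and 36.0% of the kinase counts in parental controls and 41.5% in both starved libraries, and 24.5% and 27.7% in ρ0 controls against 32.2% and 32.3% when starved. The share of EIF2AK2 was 17.8% and 15.3% against 13.4% and 12.7% in parental cells, and 21.9% and 27.0% against 21.6% and 21.5% in ρ0 cells. A higher share is not a higher level, since it also depends on the counts of the other kinases. The parental share of EIF2AK4 rose while its level went from 145 and 141 CPM to 131 and 131 CPM. Shares of counts also depend on transcript length, which was taken as the same in every library and not measured.

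**Figure D2:**
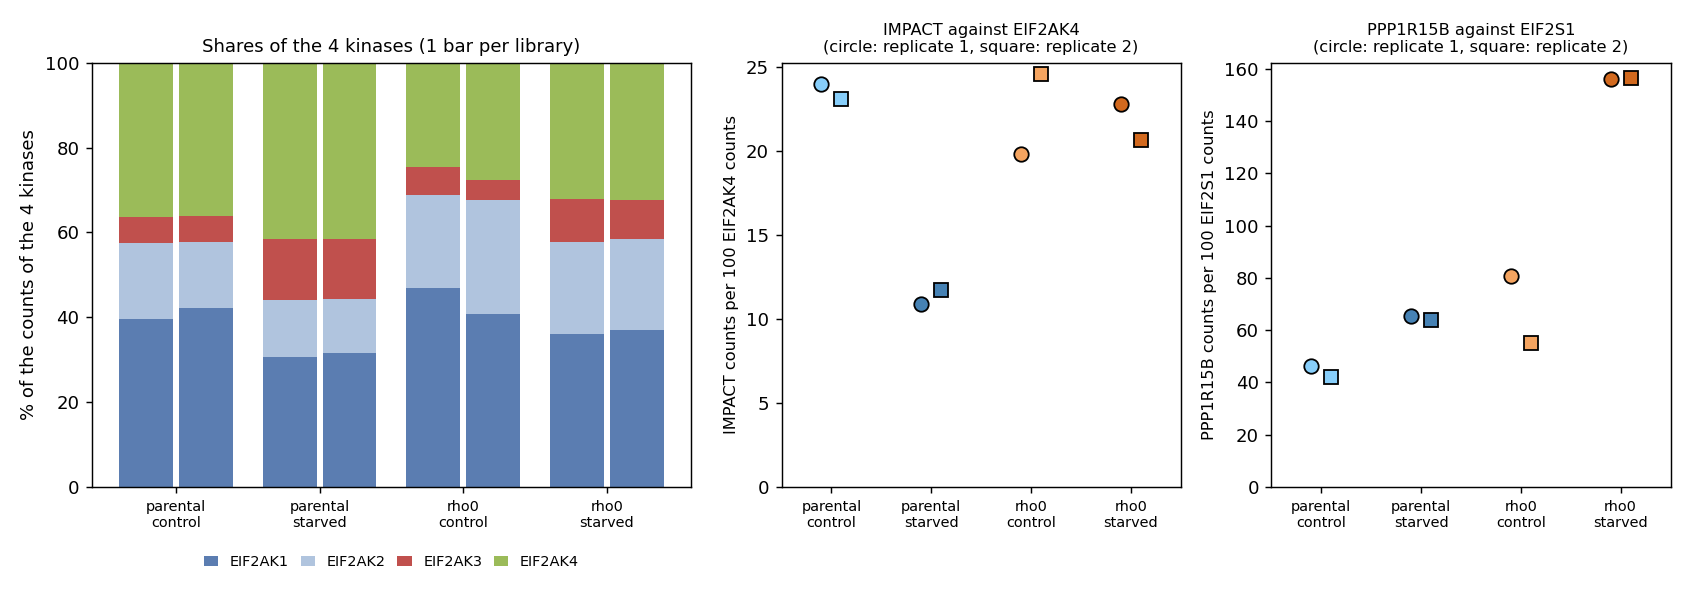
Values formed within each library from raw counts. Left, the share of each kinase in the summed counts of the 4 kinases (y axis, percent), 1 bar per library. Middle and right, IMPACT counts per 100 EIF2AK4 counts and PPP1R15B counts per 100 EIF2S1 counts in the 4 groups (circle, replicate 1, square, replicate 2). The starved parental libraries have the highest EIF2AK3 share (14.4% and 14.3%) and the lowest IMPACT values (10.9 and 11.7), and the starved ρ0 libraries the highest PPP1R15B values (156 and 157).

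IMPACT, the restraint on GCN2, fell in parental cells and did not pass the test in ρ0 cells. It stood at 34.7 and 32.6 CPM in parental controls and at 14.2 and 15.3 CPM after starvation, 43.9% of the control level. The ρ0 libraries held 22.0 and 24.9 CPM as controls and 25.4 and 23.3 CPM when starved. In parental cells the groups lay apart, as for 89.2% of all tested genes, and in ρ0 cells, where 67.5% of all tested genes lay apart, they overlapped. The log2 fold change was -1.19 (SE 0.11, adjusted p = 7.7e-05) in parental cells and 0.06 (CI -0.20 to 0.31, adjusted p = 0.71) in ρ0 cells. The difference between these responses was itself past the threshold, at 1.25 (CI 0.88 to 1.61, adjusted p = 0.0013), where 40.4% of all tested genes were called (21.6% higher and 18.8% lower in ρ0 cells). It was 1.16 to 1.31 when any single library was left out, and was called each time. Against EIF2AK4, there were 23.9 and 23.1 IMPACT counts per 100 in parental controls and 10.9 and 11.7 in starved parental cells. The ρ0 values were 19.8 and 24.5 in controls and 22.8 and 20.6 after starvation, so the ratio was lower after starvation in the parental libraries and overlapped in the ρ0 ones.

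EIF2S1, the kinases' substrate, rose in parental cells. Its level went from 249 and 257 CPM to 452 and 467 CPM, a 1.82-fold change (log2 fold change 0.86, SE 0.18, adjusted p = 0.0037). In ρ0 cells it stood at 158 and 244 CPM in controls and at 166 CPM in both starved libraries. The starved ρ0 libraries lay between the controls, with a log2 fold change of -0.28 (CI -0.69 to 0.14, adjusted p = 0.25). The responses differed by -1.14 (CI -1.73 to -0.55, adjusted p = 0.011). The size of that difference depended on the ρ0 controls, with -1.42 without library 1 and -0.82 without library 2. The ρ0 response itself was -0.56 without library 1 and 0.08 without library 2, so its direction was not settled by these libraries. EIF2S1 shares 269 exon bases with ATP6V1D on the opposite strand, whose log2 fold change was 0.11 in parental and -0.51 in ρ0 cells, with a difference of -0.62 (adjusted p = 0.0049).

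PPP1R15B, the constitutive eIF2α phosphatase subunit, rose in both lines and more in parental cells. Parental controls had 115 and 108 CPM and starved parental cells 296 and 299 CPM. The ρ0 cells went from 127 and 134 CPM to 258 and 259.6 CPM. Groups lay apart in both lines, as for 89.2% of all tested genes in parental and 67.5% in ρ0 cells. The rise was 2.66-fold in parental cells (log2 fold change 1.41, SE 0.08, adjusted p = 1.1e-05) and 1.98-fold in ρ0 cells (0.98, SE 0.07, adjusted p = 0.00018). The responses differed by -0.43 (CI -0.67 to -0.18, adjusted p = 0.016). That difference missed the threshold without parental control library 2, either parental starved library or either ρ0 starved library (adjusted p = 0.065 to 0.075), at values of -0.38 to -0.45. Per 100 EIF2S1 counts, there were 46.2 and 42.1 PPP1R15B counts in parental controls and 65.3 and 64.0 after starvation. The corresponding ρ0 values were 80.8 and 55.0 in controls and 156 and 157 in starved cells, above those of every other library.

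**Figure D3:**
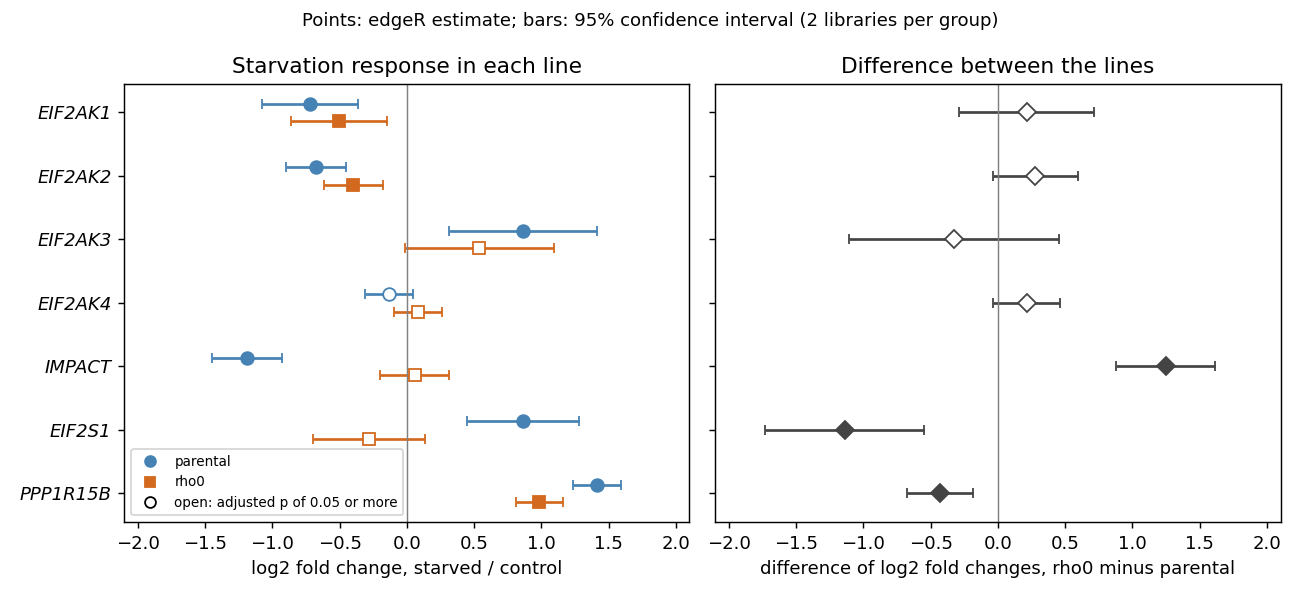
Starvation response of the 7 genes. Left, log2 fold change of starved against control (x axis) in parental (circles) and ρ0 cells (squares), and right, the difference of these changes, ρ0 minus parental (diamonds). Bars are 95% confidence intervals from edgeR with 2 libraries per group, and open symbols did not pass an adjusted p of 0.05. IMPACT (1.25), EIF2S1 (-1.14) and PPP1R15B (-0.43) are filled on the right, and the 4 kinases are open.

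The responses of 3 of the 7 members, IMPACT, EIF2S1 and PPP1R15B, were called as different between the lines, a share near the 40.4% of all tested genes. For the kinases the differences, ρ0 minus parental, were 0.22 (CI -0.29 to 0.72) for EIF2AK1, 0.28 (-0.03 to 0.59) for EIF2AK2, -0.33 (-1.10 to 0.45) for EIF2AK3 and 0.21 (-0.04 to 0.46) for EIF2AK4. None passed the test, with adjusted p between 0.14 and 0.47, and the widths leave room for differences of up to 1 log2 unit for EIF2AK3. Leaving out a ρ0 control library narrowed the spread, since the remaining library of that group was assumed to vary like the other groups, and the share of all genes called for the difference then rose to 67.4% without library 1 and 60.7% without library 2. Without library 1, EIF2AK1 (0.49, adjusted p = 6.3e-06), EIF2AK2 (0.29, 0.018) and EIF2AK4 (0.28, 0.0012) were called. Without library 2, EIF2AK2 (0.25, adjusted p = 0.044) and EIF2AK3 (-0.71, 9.1e-06) were called. EIF2AK1 (-0.05 without library 2) and EIF2AK3 (0.16 without library 1) changed sign between these fits, whereas EIF2AK2 and EIF2AK4 were positive in both.

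**Figure D4:**
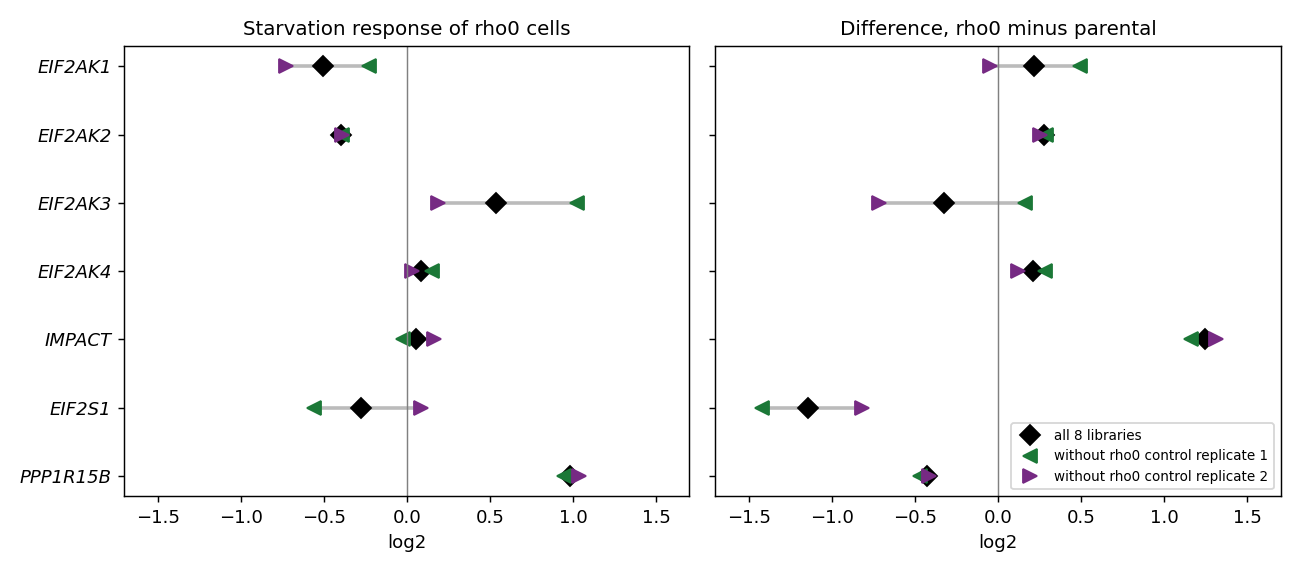
Dependence on the ρ0 control libraries. Log2 values of the ρ0 starvation response (left) and of its difference from the parental response (right) with all 8 libraries (diamonds), without ρ0 control replicate 1 (left-pointing triangles) and without replicate 2 (right-pointing triangles). EIF2AK3 moves from 0.19 to 1.03 and EIF2S1 from -0.56 to 0.08 on the left, while EIF2AK2 and PPP1R15B hardly move.

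The lines also differed at a fixed condition. In control cells, EIF2AK2 was higher in ρ0 than in parental cells (log2 difference 0.59, adjusted p = 0.0011), as was PPP1R15B (0.23, adjusted p = 0.028). EIF2AK4 (-0.43, adjusted p = 0.0019) and IMPACT (-0.52, adjusted p = 0.0043) were lower. These 4 of 7 stand against 62.3% of all tested genes (30.5% higher and 31.8% lower). EIF2AK1 (0.16), EIF2AK3 (-0.10) and EIF2S1 (-0.33) did not pass, and these values depended on the ρ0 control libraries. Without library 1 and 2, EIF2AK1 was at -0.12 (adjusted p = 0.048) and 0.45 (3.6e-07), and EIF2AK3 at -0.59 (7e-06) and 0.32 (0.0014), so both were called in opposite directions. EIF2S1 was at -0.05 (adjusted p = 0.34) without library 1 and at -0.63 (2.7e-09) without library 2. In these fits 78.1% and 77.0% of all tested genes were called. PPP1R15B missed the threshold without either parental control library (adjusted p = 0.053 and 0.15) or without either parental starved library (0.067 each). It also missed with total counts alone (0.16), with limma-voom and group weights (0.16) and in a fit to the control libraries alone (0.18), and IMPACT missed with the group weights (0.056).

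In starved cells, EIF2S1 stood furthest apart, 0.361-fold as high in ρ0 as in parental cells (log2 difference -1.47, SE 0.18, adjusted p = 0.00026). EIF2AK2 (0.87, adjusted p = 0.00014) and IMPACT (0.73, adjusted p = 0.00083) were higher in ρ0 cells. IMPACT thus lay below the parental level in control ρ0 cells and above it in starved ones. EIF2AK4 (-0.22, adjusted p = 0.037) and PPP1R15B (-0.20, adjusted p = 0.046) were slightly lower. The calls of these last genes were lost with the replicate number as a block (adjusted p = 0.056 and 0.074) and without any one of the parental or ρ0 starved libraries (0.061 to 0.24), and also with upper quartile scaling (0.12 and 0.16) or no filter (0.13 and 0.16). The 5 of 7 members called stand against 66.5% of all tested genes (32.9% higher and 33.5% lower). EIF2AK1 (0.38, adjusted p = 0.061) and EIF2AK3 (-0.43, adjusted p = 0.14) did not pass. Both did so with limma-voom and group weights, and in a fit to the starved libraries alone (adjusted p of 1.3e-05 or less). EIF2AK1 also passed with upper quartile scaling (0.032), no filter (0.034) and DESeq2 (0.046).

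Levels of different genes were compared per kilobase of merged exons. In parental controls the order was EIF2S1 (44.8 ± 0.936 CPM per kilobase, SD, n = 2), EIF2AK1 (29.1 ± 1.01), PPP1R15B (21.3 ± 0.949), EIF2AK4 (11.96 ± 0.222), IMPACT (6.84 ± 0.303), EIF2AK2 (6.10 ± 0.713) and EIF2AK3 (4.58 ± 0.00186). IMPACT and EIF2AK2 lay closer together than the sum of their SDs, and the other neighbours did not. After starvation of parental cells, EIF2S1 (81.3 ± 1.78) and PPP1R15B (56.8 ± 0.410) led, and IMPACT (2.998 ± 0.163) was last. In ρ0 controls, EIF2S1 (35.6 ± 10.8), EIF2AK1 (32.6 ± 8.12) and PPP1R15B (25.05 ± 0.929) could not be ordered beyond their spread, nor could EIF2AK2 (9.20 ± 0.0498) and EIF2AK4 (8.88 ± 0.584), or IMPACT (4.77 ± 0.407) and EIF2AK3 (4.28 ± 1.74). In starved ρ0 cells PPP1R15B (49.5 ± 0.162) stood above EIF2S1 (29.3 ± 0.0173), the reverse of the order in starved parental cells. The place of EIF2AK4 depended on the length used, since its merged exons span 11957 bases and its longest transcript 5499, with 10.3 and 22.4 CPM per kilobase over the 8 libraries.

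The partners of the members were counted next. Of 8 genes for the other eIF2 subunits, eIF2B, which reloads eIF2 with GTP, and the eIF2 assembly factor CDC123, 4 rose and 0 fell in parental cells (median log2 fold change 0.34, all genes -0.07). In ρ0 cells 1 rose and 1 fell (median -0.17, all genes -0.02). Of all tested genes, 30.4% rose and 35.5% fell in parental cells, and 19.2% and 22.1% in ρ0 cells. EIF2B4 rose in both lines (0.83 and 0.47), EIF2B3 rose in parental cells (0.59, and -0.27 with adjusted p = 0.14 in ρ0 cells), EIF2B2 likewise (0.35, and -0.07 with adjusted p = 0.50), and EIF2B5 fell in ρ0 cells (-0.49, adjusted p = 0.012). For 3 of the 8, all encoding eIF2B subunits, the response was called lower in ρ0 cells, namely EIF2B3 (-0.86), EIF2B1 (-0.78) and EIF2B2 (-0.42), the same sign as for EIF2S1, where 18.8% of all tested genes were called lower. The difference for EIF2B1 was -1.04 without ρ0 control library 1 and -0.48 without library 2, and the ρ0 response of EIF2B5 was -0.66 and -0.29. Without library 1, 7 of the 8 were called lower in the difference (32.5% of all genes), and 4 without library 2 (30.3%). The count that fell in ρ0 cells was 5 (32.4% of all genes) and 1 (32.0%).

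Among 4 genes of the phosphatase, PPP1R15A, the inducible partner, rose from 99.4 and 101 CPM to 1872 and 1847 CPM in parental cells and from 138 and 338 CPM to 982 and 942 CPM in ρ0 cells. Its log2 fold changes were 4.21 (adjusted p = 6.8e-05) and 2.01 (adjusted p = 0.0036), with a difference of -2.20 (adjusted p = 0.010). Without ρ0 control library 1 and 2, the ρ0 response of PPP1R15A was 1.51 and 2.81, and the difference -2.70 and -1.44. Per 100 PPP1R15B counts, there were 86.4 and 93.7 PPP1R15A counts in parental controls and 634 and 618 after starvation, against 108 and 252 and then 380 and 363 in ρ0 cells. The catalytic subunit gene PPP1CA rose in parental cells (0.44, and -0.02 with adjusted p = 0.84 in ρ0 cells), and PPP1CC fell in both lines (-0.33 and -0.62). PPP1CB did not pass in either line. The counts were thus 2 higher and 1 lower of 4 in parental cells and 1 and 1 in ρ0 cells. Calls of either direction stand beside 65.9% of all tested genes in parental and 41.3% in ρ0 cells.

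Among 13 genes known to activate or inhibit these kinases, 4 rose and 6 fell in parental cells, and 5 rose and 1 fell in ρ0 cells, 10 and 6 of 13 beside the 65.9% and 41.3% of all tested genes called. NCK1, an adaptor known to bind PERK, rose in both lines (log2 fold changes 1.18 and 0.47, difference -0.72 with adjusted p = 0.0029). DNAJC3, the P58IPK inhibitor of PKR and PERK, rose as well (1.13 and 0.57, the ρ0 value 0.82 and 0.37 without control library 1 and 2). So did HSPA5, the chaperone that holds PERK inactive (0.59 and 1.29, the ρ0 value 1.68 and 0.997 without control library 1 and 2). The PKR activator gene PRKRA rose too (0.60 in both). OMA1, the mitochondrial protease upstream of HRI, fell from 21.6 and 23.7 CPM to 11.3 and 11.3 CPM in parental cells (-0.996) and rose from 9.54 and 8.33 CPM to 12.8 and 12.7 CPM in ρ0 cells (0.51). The difference of 1.51 (adjusted p = 0.00088) had the sign of that of IMPACT. GCN1, the partner of GCN2, did not pass in either line (0.01 and 0.16), and in control cells was lower in ρ0 than in parental cells (-1.46, adjusted p = 8.3e-06). Without ρ0 control library 1 or 2, the numbers that rose in ρ0 cells were 8 and 7 (31.5% and 31.4% of all genes) and those that fell 4 and 2 (32.4% and 32.0%). Calls of either direction, 12 and 9 of 13, stand beside 63.9% and 63.3% of all genes.

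**Figure D5:**
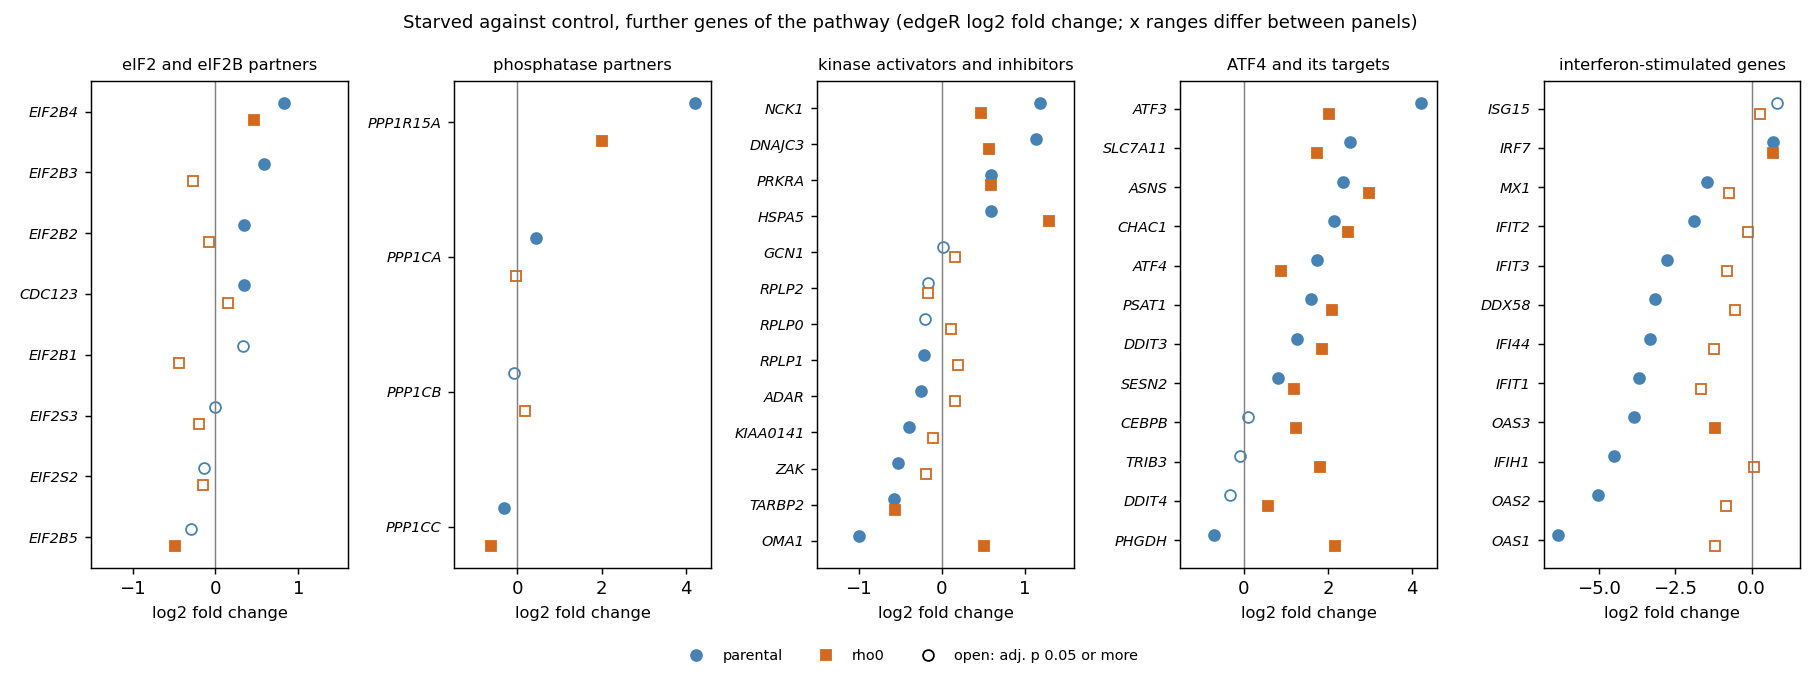
Log2 fold change of starved against control (x axis, edgeR, ranges differ between panels) for further genes of the pathway in parental (circles) and ρ0 cells (squares), with open symbols for an adjusted p of 0.05 or more. KIAA0141, ZAK and DDX58 are the table's symbols for DELE1, MAP3K20 and RIGI, and 12 of the 13 tested interferon-stimulated genes are drawn. PPP1R15A (4.21 and 2.01) and ATF3 (4.22 and 2.02) moved furthest upward in parental cells, and OMA1 lies on opposite sides of 0 in the 2 lines (-0.996 and 0.51).

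Downstream of eIF2α, 8 of 12 genes of the ATF4 list rose and 1 fell in parental cells (median 1.44), and 12 of 12 rose in ρ0 cells (median 1.83), also without either ρ0 control library. Over all tested genes the shares that rose were 30.4% and 19.2%, and in ρ0 cells 31.5% and 31.4% without control library 1 and 2. ATF4 itself stood at 159 and 163 CPM and then 543 and 537 CPM in parental cells, and at 144 and 201 CPM and then 322 and 319 CPM in ρ0 cells. Its log2 fold changes were 1.75 (adjusted p = 4.7e-05) and 0.89 (adjusted p = 0.0025), with a difference of -0.85 (adjusted p = 0.014). Without ρ0 control library 1 and 2, the ρ0 response of ATF4 was 0.68 and 1.17, and the difference -1.07 and -0.62. The largest rises in parental cells were those of ATF3 (4.22), the cystine transporter gene SLC7A11 (2.54) and the asparagine synthetase gene ASNS (2.37). In ρ0 cells they were ASNS (2.97), the glutathione-degrading enzyme gene CHAC1 (2.47) and the serine synthesis gene PHGDH (2.16). Leaving out ρ0 control library 1 and 2 in turn gave 2.56 and 3.57 for ASNS, 1.99 and 3.22 for CHAC1, and 2.04 and 2.32 for PHGDH. PHGDH fell in parental cells (-0.71, adjusted p = 0.00068), from 78.4 and 81.3 CPM to 48.0 and 49.4 CPM. Its rise in ρ0 cells started from 27 and 35 counts, about 1 CPM, and reached 148 and 102 counts, far below the parental level. Its response was the one that differed most between the lines (2.87, adjusted p = 0.00017). ATF3 differed in the other direction (-2.20, adjusted p = 0.0011), and TRIB3 rose in ρ0 cells (1.81) with a value of -0.09 in parental cells and a difference of 1.90 (adjusted p = 0.010). The difference for TRIB3 was 1.46 without ρ0 control library 1 and 2.53 without library 2. Of the 12 genes, 4 responses were higher and 2 lower in ρ0 cells, where 40.4% of all genes were called. The counts were 6 and 3 without ρ0 control library 1 (67.4% of all genes called) and 9 and 3 without library 2 (60.7%).

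EIF2AK2 is itself an interferon-stimulated gene and was set beside 14 others, of which 13 were tested and IRF9 was listed at 0 in every library. In parental cells 11 of the 13 fell and 1, IRF7, rose (0.69), with a median of -3.17, where 35.5% of all tested genes fell and 30.4% rose. OAS1 (-6.32), OAS2 (-5.01) and IFIH1 (-4.49) fell furthest, to 3 and 7, 1 and 4, and 10 and 5 counts in the starved libraries, where EIF2AK2 kept 1063 and 1128 counts. In ρ0 cells 2 fell, among them OAS3 (-1.18, and -0.70 and -1.53 without control library 1 and 2), and IRF7 rose (0.69). The shares of all tested genes that fell and rose there were 22.1% and 19.2%. In control cells 10 of the 13 were higher in ρ0 than in parental cells and in starved cells all 13, with medians of 3.03 and 4.99 against 0.59 and 0.87 for EIF2AK2. Of all tested genes, 30.5% were higher in control and 32.9% in starved ρ0 cells. The ρ0 controls differed strongly for this list, with 12 of 13 genes higher in library 1, for example 276 against 33.2 CPM for IFIT1 and 537 against 109 CPM for IFIT3. Without library 1, 9 of the 13 rose and 2 fell in ρ0 cells (31.5% and 32.4% of all genes), and without library 2, 1 rose and 12 fell (31.4% and 32.0%), so the direction of the list in ρ0 cells rested on which control was used. EIF2AK2, at 99.4 and 98.6 CPM in these libraries, did not follow that split. With all 8 libraries, the response was called higher in ρ0 than in parental cells for 5 of the 13 and lower for 0 (median difference 2.05). Of all tested genes, 21.6% were called higher and 18.8% lower. These differences rest on the same ρ0 controls.

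The genes whose pattern over the 8 libraries was most like that of each member were sought among 9950 genes with a mean of at least 10 CPM. Libraries of a group are not independent of each other, so the Pearson r of log2 CPM is given as a description. EIF2S1 ran closest to EIF2B3 (r = 0.996), a gene of the list of its own partners, then SLC35G1 (0.993). IMPACT ran closest to TDRD3 (0.990) and DUSP4 (0.989), which changed by -1.53 and -2.31 in parental cells and by -0.10 and 0.14 in ρ0 cells. PPP1R15B was nearest to SERINC5 and TRIO (both 0.997). For the kinases, the nearest genes were LIMK1 (0.996) and MGST2 (0.993) for EIF2AK1, KIAA1841 (0.996) and PDCL (0.993) for EIF2AK2, ZFYVE1 (0.995) and SEPW1 (0.993) for EIF2AK3, and RBMS2 (0.998) and HAPLN3 (0.996) for EIF2AK4.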

How the data were processed

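RNA-seq counts of 8 libraries were analysed. The authors deposited the counts as whole numbers, by gene symbol and without normalization. The submitters' processing notes name Bowtie, Partek and hg19, and the annotation and strand setting are not given in the sources used here. The test was that of edgeR 4.0.16 in R 4.3.3 (filterByExpr, TMM, quasi-likelihood test on all 8 libraries, 1 mean per group, 4 residual degrees of freedom). It was checked on simulated data with the same spread in every group, so that check does not cover the larger spread of the ρ0 controls. CPM are TMM-scaled. P-values were adjusted by Benjamini-Hochberg over 15262 genes. Tested were the starvation response of either line, its difference between lines (ρ0 minus parental), and ρ0 against parental cells in each condition. Exon lengths came from GENCODE v29 and promoters from RefSeq, both GRCh38, and were joined by symbol. Alternatives were other scalings, filters, DESeq2 1.42.0, limma 3.58.1 (voom), the replicate block, fits to 1 line or condition and leaving out each library. The within-library ratios, and the fits without a ρ0 control library for the genes and counts of the further lists, were added after the data were seen. From each list, ATF4, PPP1R15A and up to 3 called genes with the largest change in the starvation response of each line were named. Other list genes named, and the genes given with a difference between the lines, were chosen after their values were seen and are not a full set. Of the interferon list, 1 gene is counted but not reported here. Members and lists were chosen with earlier results of these data known.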

Additional observations from a re-analysis of the deposited data

Results flagged for a closer look

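The starvation responses of 3 of the 7 members differed between the lines in edgeR's test of the difference itself, where 40.4% of all tested genes were called. On the log2 scale, ρ0 minus parental, the difference was 1.25 for IMPACT (-1.19 in parental and 0.06 in ρ0 cells, adjusted p = 0.0013). For EIF2S1 it was -1.14 (0.86 and -0.28, adjusted p = 0.011). For PPP1R15B it was -0.43 (1.41 and 0.98, adjusted p = 0.016). With single libraries left out, the difference for PPP1R15B missed the threshold in some fits, and that for EIF2S1 ran from -1.42 to -0.82.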

How the results depend on the processing

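With 2 libraries per group, and ρ0 controls that differ, precision was limited by the spread between libraries more than by depth. The replicate numbers did not pair the libraries, with correlations of -0.05 to 0.04 between same-numbered deviations, and under the replicate block 3 of 7 members were called in starved ρ0 against parental cells in place of 5. It changed no other call of a member. Requiring a log2 change beyond 1 left 5320, 1894, 4718 and 5415 genes and 2, 0, 0 and 1 members (parental response, ρ0 response, control cells, starved cells) and 3037 genes for the difference. Limma-voom with group weights called 3993 genes in the ρ0 response and 2 members between control cells, and the ρ0 libraries alone gave 2985 genes and 1 member. IMPACT in ρ0 cells was -0.021 with total counts alone. Leaving out 1 library turned the sign of 6 values, whose ranges were -0.025 to 0.16 (IMPACT, ρ0 response), -0.56 to 0.083 (EIF2S1, ρ0 response), -0.046 to 0.49 (EIF2AK1, difference), -0.71 to 0.16 (EIF2AK3, difference), -0.12 to 0.45 (EIF2AK1, control cells) and -0.59 to 0.32 (EIF2AK3, control cells). Without a ρ0 control library, PPP1CA in ρ0 cells was -0.088 to 0.057. Leaving out 1 library at a time gave 8025 to 12355 genes and 5 to 7 members for the parental response, 3221 to 9750 and 1 to 6 for the ρ0 response, 3563 to 10281 and 2 to 6 for the difference, 7465 to 11912 and 3 to 7 in control cells, and 8116 to 12418 and 3 to 7 in starved cells. The highest counts came without a ρ0 control library. Per kilobase of the longest transcript, levels over 8 libraries were 31.8 (EIF2AK1), 6.99 (EIF2AK2), 6.83 (EIF2AK3), 22.4 (EIF2AK4), 6.34 (IMPACT) and 60.2 (EIF2S1) CPM, against 25.6, 6.53, 5.84, 10.3, 4.89 and 47.7 with merged exons. Apart from the smaller spread without a ρ0 control library, the cause of these changes was not tested.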
